A study of Homo sapiens with 10 samples.

Results

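The 10 genes described here encode the alpha- and beta-tubulin isotypes TUBA1A, TUBA1B, TUBA1C, TUBA4A, TUBB, TUBB2A, TUBB2B, TUBB3, TUBB4B and TUBB6. Their spots were taken by gene symbol from the platform annotation of the arrays. The family was chosen with earlier results of these data known. The 10 genes were among 18334 measured, and lay on 24 of 45220 spots. The study grew A549, an established human lung adenocarcinoma line of epithelial type, either as a flat monolayer (5 arrays) or in a rotating wall vessel, RWV (5 arrays), a rotating culture chamber that keeps cells in suspension. No other agent is named for either group, and the labels describe the 5 arrays of each group as biological replicates. The medium given for all samples was Dulbecco's modified Eagle's medium with foetal calf serum and glutamine. That note names the RWV for monolayer samples as well, and the titles decided which culture an array belongs to. Total RNA was labelled with Cy3 and hybridised to 1-colour arrays, which measured the RNA of the whole culture, so that fewer cells with a transcript and less of it per cell cannot be told apart.

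Alpha- and beta-tubulin form the heterodimer that polymerises into microtubules, the hollow filaments that carry intracellular transport, build the mitotic spindle and form the core of cilia. The isotypes are encoded by separate genes, are very similar in their coding sequence and differ mostly in the acidic tail that modifying enzymes and motors read. Because the coding sequences are so alike and many processed pseudogenes exist, a spot named for one isotype may also take up RNA of another, and the probe sequences were not used here.

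Level means quantile-normalised intensity throughout, changes are differences of log2(level + 50) in RWV minus monolayer with their standard error (SE), and a gene rose or fell only where the limma test over all genes gave an adjusted p under 0.05. The 75th percentile of deposited intensity lay between 921 and 1685 on the monolayer arrays and between 875 and 1277 on the RWV arrays. Correlations of log2 levels over all genes were 0.964 to 0.990 within the monolayer group and 0.978 to 0.990 within the RWV group. The markers named for A549 (the epithelial KRT7, KRT8, KRT18, KRT19, EPCAM and CDH1, and the mesenchymal VIM) were all above 100 in both groups. By contrast, 7 of 9 leukocyte, fibroblast and endothelial markers had a level below 100 on all 10 arrays. The array RWV 3 stood apart from the other RWV arrays. It was the highest RWV array for 9 of the 10 tubulin genes, against 24.2% of all genes and 48.5% of the genes that fell. The results it touches are also given without it. RWV 3 was singled out after seeing these values, so leaving it out lowers the RWV mean of those 9 genes by construction. Values without it are a description and no separate support.

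The stretches upstream of 5 tubulin genes are shown because their RNAs carry the main results. They include the gene with the largest fall (TUBB6) and a pair with unequal saturation (TUBA1C and TUBB4B). Also shown are TUBB, with which other beta isotypes were compared, and TUBB3, whose difference from TUBB changed. Each line gives 250 bases before a RefSeq transcript start on GRCh38.p14, 5′ to 3′ on the gene's strand, and the capitals mark CCAAT, bound by NF-Y, or TTTGAA, the core of the cell cycle genes homology region, in either orientation (ATTGG and TTCAAA).
TUBB6, chr18:12307991-12308240, plus strand: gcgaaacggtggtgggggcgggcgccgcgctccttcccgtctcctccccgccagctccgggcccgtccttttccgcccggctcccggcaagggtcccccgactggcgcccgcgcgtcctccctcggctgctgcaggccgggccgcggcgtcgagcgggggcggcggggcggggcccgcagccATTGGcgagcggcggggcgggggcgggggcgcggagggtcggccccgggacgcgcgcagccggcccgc
TUBB, chr6:30720102-30720351, plus strand: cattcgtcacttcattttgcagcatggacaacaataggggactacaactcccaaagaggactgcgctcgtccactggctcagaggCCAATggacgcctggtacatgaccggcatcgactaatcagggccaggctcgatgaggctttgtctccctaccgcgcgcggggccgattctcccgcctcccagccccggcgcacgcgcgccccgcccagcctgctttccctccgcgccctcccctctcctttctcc
TUBA1C, chr12:49264832-49265081, plus strand: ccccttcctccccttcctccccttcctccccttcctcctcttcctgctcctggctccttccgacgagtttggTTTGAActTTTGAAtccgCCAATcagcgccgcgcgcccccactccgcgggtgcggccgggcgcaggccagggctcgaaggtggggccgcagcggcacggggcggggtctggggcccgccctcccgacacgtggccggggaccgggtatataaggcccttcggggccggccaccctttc
TUBB4B, chr9:137241037-137241286, plus strand: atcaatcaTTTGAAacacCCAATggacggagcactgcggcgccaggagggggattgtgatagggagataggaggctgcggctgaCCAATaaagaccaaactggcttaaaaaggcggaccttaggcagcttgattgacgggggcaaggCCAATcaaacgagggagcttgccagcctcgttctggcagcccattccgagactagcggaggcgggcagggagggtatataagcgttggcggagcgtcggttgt
TUBB3, chr16:89923092-89923341, plus strand: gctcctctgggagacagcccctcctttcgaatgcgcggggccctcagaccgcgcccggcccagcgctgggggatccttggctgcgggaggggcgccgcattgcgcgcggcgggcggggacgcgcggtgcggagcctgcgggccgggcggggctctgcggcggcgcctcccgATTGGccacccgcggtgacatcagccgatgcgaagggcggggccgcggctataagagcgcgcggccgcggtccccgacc

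All 10 genes had an entry, with 15 windows in all. Where a printed gene had several windows, the window printed holds a match. TUBB, TUBB3 and TUBB6 each have another window, not printed, with neither CCAAT nor TTTGAA. The TUBA1C windows not printed hold fewer matches than the printed window. CCAAT in either orientation was present in a window of 7 of the 10 genes, against 37.0% of the 27305 genes with an entry. By window, CCAAT was present in 9 of the 15, against 32.0% of all 35116 windows of the same length. It was found for all 5 of the genes that fell and for 2 of the 5 that did not pass the test, TUBB2B and TUBB3. TUBB4B held 3 such matches, at 103, 166 and 232 bases before the start, a number reached in 2.93% of all windows. TTTGAA was present upstream of TUBA1C and TUBB4B and in 13.3% of all windows, and TATAAA, in either orientation, upstream of TUBB2A only among the 10, and in 10.7% of all windows. No match overlapped another in the stretches printed. These matches describe the letters of the windows and were not tested for binding.

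Of the 10 tubulin genes, 5 fell in RWV culture and none rose. TUBB6, TUBB, TUBA1A, TUBA1C and TUBB4B passed the test, with monolayer levels between 1.64 and 2.70 times the RWV levels, while TUBA4A, TUBB3, TUBB2A, TUBA1B and TUBB2B did not pass. The background was wide: 30.1% of all 18334 genes passed the same test, 15.2% in the lower and 15% in the higher direction. The median change was −0.55 over the 10 tubulin genes and 0.01 over all genes. No tubulin gene was higher in RWV even at an unadjusted p under 0.05, a limit that 19.5% of all genes passed in that direction. Without normalization between arrays the calls among all genes split into 2518 lower and 1037 higher, in place of 2783 and 2743, and the median of all genes was −0.13. The same 5 tubulin genes fell there and none rose, but that setting favours falls and is no separate support. The number that fell was 3 with arrays scaled to a common 75th percentile and 3 with the brightest spot of each gene. It was also 3 with spots saturated on any array left out, which leaves TUBA1B, TUBA1C and TUBB6 without a value.

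**Figure D1:**
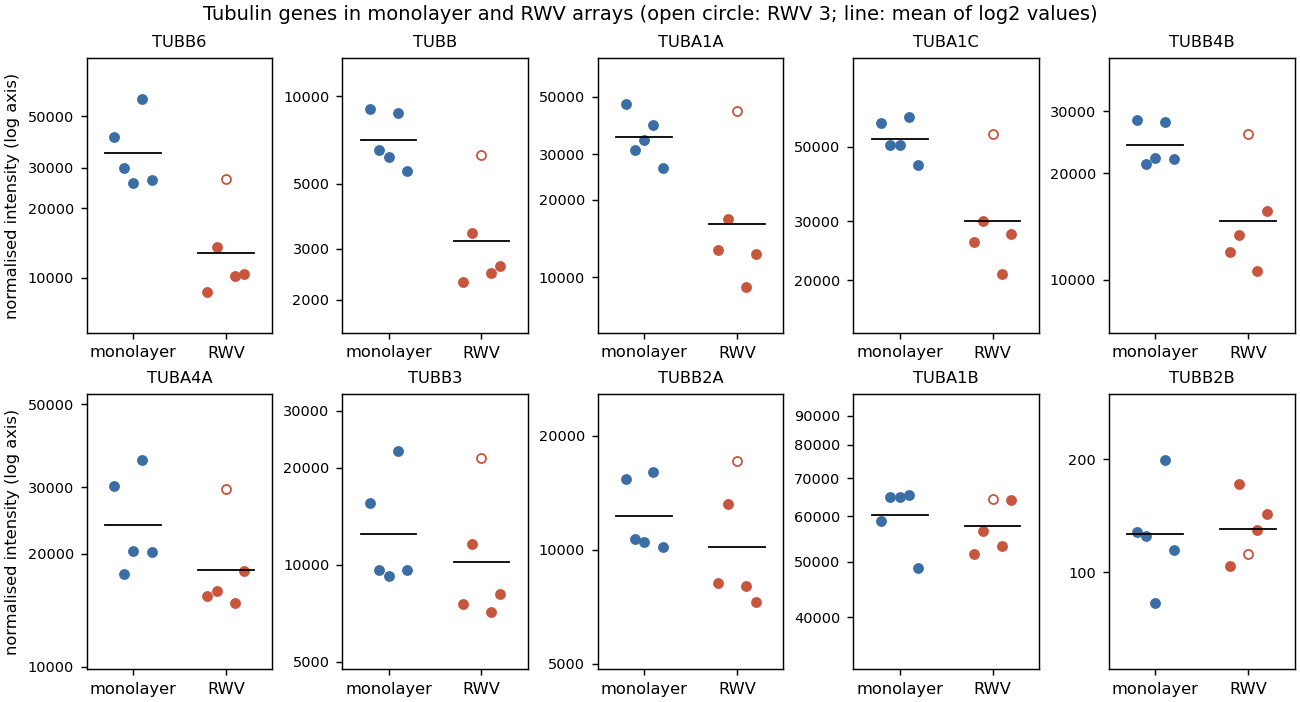
Normalised intensity (log axis, scaled separately in each panel) of the 10 tubulin genes on each monolayer and RWV array, with a line at the mean of the log2 values of each group and RWV 3 as an open circle. In the 5 upper panels 4 of the 5 RWV arrays lie below all monolayer arrays, and RWV 3 lies among or close to the monolayer arrays.

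Among the alpha-tubulins, TUBA1A, the isotype best known from the developing brain, was measured by a single spot with no saturation. Its monolayer levels were 47093, 31002, 33919, 38918 and 26563 on arrays 1 to 5. Its RWV levels were 12791, 16789, 43977, 9149 and 12367. RWV 3 thus lay inside the monolayer range and the other 4 RWV arrays lay below all 5 monolayer arrays. TUBA1A fell by 1.11 on the log2 scale (SE 0.35), a monolayer-to-RWV ratio of 2.16 (adjusted p = 0.030), and without RWV 3 the change was −1.48 (SE 0.20, adjusted p = 2.9e-04). This call was lost when any of 6 single arrays was left out, monolayer 1 or 4 or RWV 1, 2, 4 or 5, with adjusted p between 0.054 and 0.077.

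TUBA1C, a broadly expressed alpha isotype, was measured by 4 spots. Averaged over them, its monolayer levels were 58729, 50668, 50597, 61121 and 44123, and its RWV levels were 26046, 30113, 54664, 20954 and 27458. The 4 RWV arrays other than RWV 3 again lay below every monolayer array. TUBA1C fell by 0.81 on the log2 scale (SE 0.22, adjusted p = 0.014), and the change was −1.02 without RWV 3. It passed the test whichever single array was left out, but not with the arrays scaled to a common 75th percentile (−0.67, adjusted p = 0.054) or with the brightest spot only (−0.092, adjusted p = 0.60), which is the saturated spot 4. Spots 2 and 3, each saturated on 1 monolayer array, gave ratios of 2.46 and 2.43 (monolayer over RWV). Spots 1 and 4 were at or above 60000, here called saturated, on all 5 monolayer arrays, and also on 1 RWV array for spot 1 and on 2 for spot 4. Both groups thus held values at or above 60000, with spot 1 at 60864 to 63844 on the monolayer arrays. The measured ratios of spots 1 and 4, 1.47 (adjusted p = 0.016) and 1.07 (adjusted p = 0.62), are therefore taken as neither estimates nor bounds. With the spots left out that were saturated on at least 2 arrays of a group, an alternative chosen after seeing the data, the change of TUBA1C was −1.29 in place of −0.81.

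TUBA1B, the main ubiquitous alpha isotype, has no usable estimate. Its single spot was saturated on all 5 monolayer arrays and on 3 of the 5 RWV arrays, with deposited intensities of 60039 to 65439 in monolayer and 43449 to 65469 in RWV. With values at or above 60000 in both groups, the measured change of −0.06 (SE 0.12, adjusted p = 0.75) is taken as no bound. Its sign turned, to 0.13, with each array scaled to a common 75th percentile. No direction can be given for TUBA1B.

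TUBA4A is the alpha isotype whose gene encodes no terminal tyrosine. Its monolayer levels were 30278, 17674, 20356, 35411 and 20191, and its RWV levels 15433, 15901, 29736, 14806 and 17930. The groups overlapped, also with RWV 3 left out, since RWV 5 exceeded the lowest monolayer array. Its 4 spots all lay lower in RWV on average, with ratios of 1.41, 1.36, 1.30 and 1.22, and none passed the test. Spot 4, with the ratio of 1.22, was saturated on 3 monolayer and 2 RWV arrays. For the gene with all 4 spots the change was −0.40 (SE 0.23, 95% interval −0.91 to 0.11, adjusted p = 0.24), and −0.58 without RWV 3 (adjusted p = 0.047). With the saturated spot left out it was −0.44 (adjusted p = 0.28). Among the alternatives run, TUBA4A passed the test only without that array.

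Among the beta-tubulins, TUBB6, an isotype known for making microtubule networks less stable when abundant, showed the largest fall. Monolayer levels were 40676, 29866, 25711, 59611 and 26600, and RWV levels were 8681, 13652, 26824, 10238 and 10425. RWV 3 exceeded monolayer arrays 3 and 5, and the other 4 RWV arrays were at most 13652. TUBB6 fell by 1.43 on the log2 scale (SE 0.31, adjusted p = 0.0045), a ratio of 2.70, and the change was −1.70 without RWV 3. Both of its spots passed the test, with ratios of 3.01 and 2.43, and each was saturated on 1 monolayer array. The first of them was the only spot of the 24 whose groups did not overlap.

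TUBB, the beta isotype of most proliferating cells, had 4 spots, none saturated on any array. Its monolayer levels were 9015, 6516, 6192, 8771 and 5529, and its RWV levels were 2312, 3395, 6302, 2481 and 2614. RWV 3 again reached into the monolayer range. TUBB fell by 1.14 on the log2 scale (SE 0.26, adjusted p = 0.0054), a ratio of 2.21, and the change was −1.39 without RWV 3. All 4 spots passed the test with ratios of 1.77, 2.89, 1.68 and 2.76, and with the brightest spot only the change was −1.53.

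TUBB4B, a widely expressed beta isotype that is also used in ciliary axonemes, had 1 spot free of saturation and 1 saturated on all 5 monolayer arrays. The mean of the 2 spots gave monolayer levels of 28238, 21208, 22118, 27930 and 21970 and RWV levels of 11990, 13365, 25927, 10630 and 15635. As before, RWV 3 lay inside the monolayer range and the other 4 below it. TUBB4B fell by 0.71 on the log2 scale (SE 0.21, adjusted p = 0.025), a ratio of 1.64, and the change was −0.91 without RWV 3. The unsaturated spot alone gave a ratio of 2.14 (adjusted p = 0.025), a change of −1.10, while the other spot, saturated on 2 RWV arrays as well, had a measured ratio of 1.25 (adjusted p = 0.21), which is no bound. The call for the gene was lost when monolayer 1 or 4 or RWV 1, 2 or 4 was left out, with adjusted p between 0.052 and 0.064, and when the arrays were scaled to a common 75th percentile (adjusted p = 0.051).

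TUBB3, the isotype used as a marker of neurons and often found in carcinoma lines, did not pass the test. Its monolayer levels were 15518, 9624, 9196, 22549 and 9598 and its RWV levels 7557, 11617, 21361, 7114 and 8080, so that the groups overlapped over most of their range. The change was −0.29 (SE 0.33, 95% interval −1.01 to 0.43, adjusted p = 0.57), and −0.56 without RWV 3 (adjusted p = 0.15). Its spots differed, at −0.65 for spot 1 (adjusted p = 0.18) and 0.07 for spot 2 (adjusted p = 0.91), and the intervals do not show that TUBB3 held its level.

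TUBB2A and TUBB2B are neighbouring genes on chromosome 6 with nearly identical proteins. TUBB2A ranged from 10177 to 16075 in monolayer and from 7263 to 17154 in RWV, with a change of −0.28 (SE 0.24, adjusted p = 0.46), and −0.46 without RWV 3 (adjusted p = 0.12). Its 2 unsaturated spots disagreed: spot 1 fell by 0.86 (adjusted p = 0.045), while spot 2 gave 0.30 (adjusted p = 0.34), so its mean describes neither. TUBB2B lay between 83.1 and 198 in monolayer and between 104 and 172 in RWV, with a change of 0.04 (SE 0.16, adjusted p = 0.90). Its second spot was below 100, the level taken here as dim, on all 10 arrays.

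Over single spots, 12 of the 24 fell and none rose, while 28.6% of the 31332 spots with 1 gene symbol passed the test and 14.6% fell. Of the 15 tubulin spots with no saturated array, 7 fell and 8 did not pass the test. Of the 4 saturated on every monolayer array, 1 fell. The ceiling was also read differently in the groups: among all spots at or above 60000, 5.84% to 8.45% were at or above 65293 on the monolayer arrays and 89.3% to 93.1% on the RWV arrays. For saturated spots, this readout and the culture cannot be told apart.

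**Figure D2:**
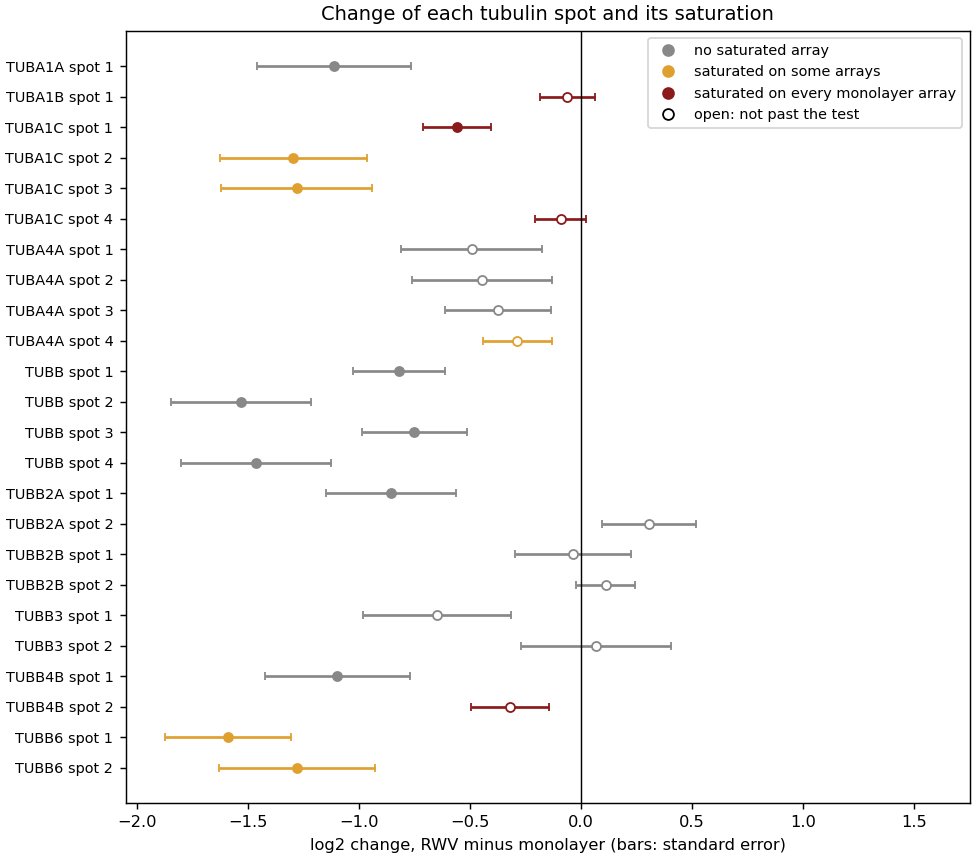
Change of each of the 24 tubulin spots (log2, RWV minus monolayer, with SE), coloured by saturation, with open symbols for spots that did not pass the test. The spots saturated on every monolayer array lie at −0.56, −0.32, −0.09 and −0.06, and those of TUBA1C and TUBB4B lie closer to 0 than the other spots of the same gene.

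Left without RWV 3, the monolayer and the other 4 RWV arrays did not overlap for 5 of the 10 tubulin genes (all genes 14.7% in that direction), and 6 fell past the test (all genes 15.4%). RWV 3 was singled out by the values of these same genes, so these counts are no separate support. With all arrays the groups overlapped for each of the 10 genes, where 12.2% of all genes were lower in RWV with no overlap. Monolayer 4 was the highest monolayer array for 7 of the 10, against 30.1% of all genes. The arrays also fall into 2 sets by their lowest deposited intensities, a split seen in the values and not in the labels: the 5th percentile was 8 to 20 on arrays 1 to 3 and 0 to 4 on arrays 4 and 5 of each group. The changes in arrays 1 to 3, which include RWV 3, and in arrays 4 and 5 were −1.10 and −1.94 for TUBB6, −0.95 and −1.43 for TUBB, and −0.79 and −1.59 for TUBA1A. For TUBA1C they were −0.60 and −1.11, for TUBB4B −0.56 and −0.94, and for TUBB3 0.15 and −0.95. Within arrays 1 to 3 no tubulin gene passed the test, within arrays 4 and 5 TUBA1A and TUBB did, and with the set as a block in the fit of all 10 arrays the same 5 genes fell.

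Related isotypes were compared within each array, to ask whether they changed unequally. The difference of log2 levels of 2 genes was compared between the groups by an exact two-sided permutation test over all assignments of 5 against 5 arrays, adjusted over the 8 pairs compared. TUBB3 moved against TUBB: their difference was 0.85 higher in RWV, from 0.56 up to 1.36 on the monolayer arrays and up to 1.76 on the RWV arrays, with no overlap (exact p = 0.0079, the smallest these groups allow, adjusted p = 0.042). TUBB4B relative to TUBB was 0.43 higher (exact p = 0.016, adjusted p = 0.042) and TUBB6 relative to TUBB 0.29 lower, at −0.29 (exact p = 0.016, adjusted p = 0.042). TUBB6 thus fell more than TUBB and TUBB4B less. However, TUBB4B against TUBB was at 0.045 (adjusted p = 0.79) once its saturated spot was left out, and TUBB6 against TUBB at −0.059 (adjusted p = 0.72) with only the brightest spot of each gene.

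TUBA1B relative to TUBA1C was 0.74 higher in RWV (adjusted p = 0.048), a value that rests on the saturated TUBA1B spot. The other 4 pairs did not pass: TUBA1A against TUBA1B was −1.05 (adjusted p = 0.063), TUBA1A against TUBA1C −0.31 (adjusted p = 0.16), TUBA4A against TUBA1B −0.34 (adjusted p = 0.22) and TUBB2A against TUBB2B −0.31 (adjusted p = 0.29). Leaving out RWV 3 brought TUBA1A against TUBA1C to −0.45 and TUBB2A against TUBB2B to −0.54, both past the test (adjusted p = 0.016). The calls with TUBB sat close to the threshold: each was lost on leaving out any of 6 single arrays (monolayer 1 or 4, RWV 1, 2, 4 or 5), with adjusted p of 0.063 or 0.079, while the difference of TUBB3 and TUBB stayed between 0.79 and 0.99. Between arrays 1 to 3 and arrays 4 and 5 that difference was 1.10 and 0.48. With the array set as a block in the permutations, all 4 calls were lost, with adjusted p of 0.067 for TUBB3 and TUBB4B against TUBB, and 0.080 for TUBB6 against TUBB and TUBA1B against TUBA1C. The differences themselves were unchanged. For TUBB3 and TUBB4B against TUBB the exact p was 0.017, the smallest the permutations within sets allow, so their lost calls do not show smaller differences.

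**Figure D3:**
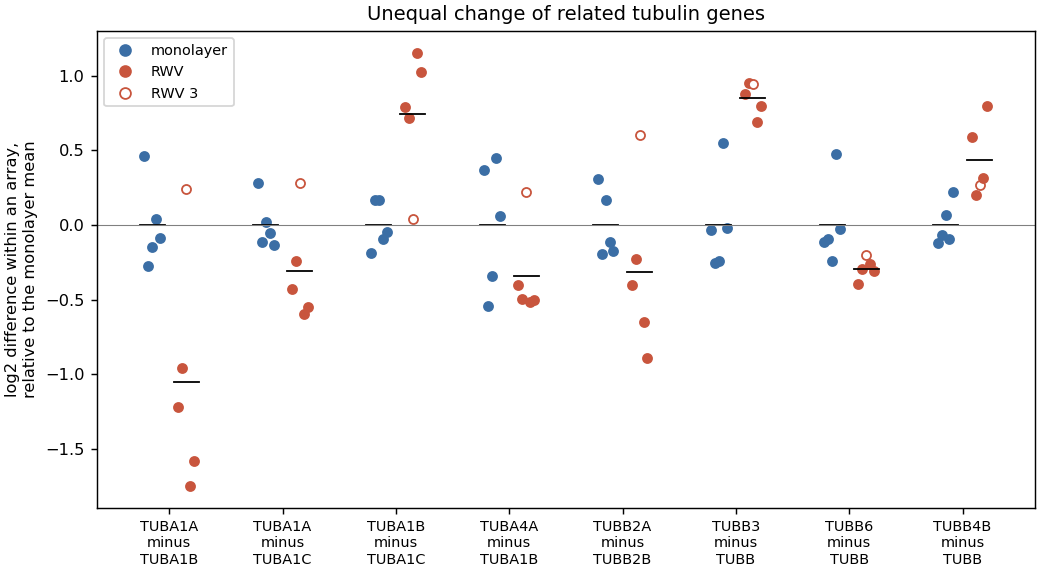
Difference of log2 levels within an array for the 8 pairs of tubulin genes, relative to the monolayer mean, with a line at each group mean and RWV 3 as an open circle. For TUBB3 minus TUBB all 5 RWV arrays, RWV 3 included, lie above all 5 monolayer arrays.

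Profiles over the 10 arrays were also compared by the root mean square difference of centred log2 levels, as a description. Within the family TUBA1C and TUBB4B were the closest pair, at 0.12, both with spots saturated on every monolayer array. TUBB2B and TUBB6 were the farthest apart, at 0.87. Outside the family, the genes closest to TUBB6 were CCNF, which encodes cyclin F (0.23), SLC25A10, a mitochondrial dicarboxylate carrier (0.25), POP1, a subunit of RNase P and RNase MRP (0.25), SMTN, the smooth muscle protein smoothelin (0.26), and INA, the neuronal intermediate filament alpha-internexin (0.26). The median of this distance over all genes was 0.92. No tubulin gene rose, so that no such list was made for a rise.

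The genes that fold, modify and bind tubulin were described by lists chosen with earlier results of these data known. Of 72 such genes measured, 23 fell and 10 rose, beside 15.2% and 15% of all genes, with a median change of −0.24. Without RWV 3, 25 fell and 9 rose.

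Tubulin folding requires the chaperonin CCT, prefoldin and the tubulin cofactors. Of 21 such genes 10 fell and none rose, with a median change of −0.48, and 11 fell without RWV 3. CCT6A and TCP1, subunits of CCT, fell by 1.07 (SE 0.15, adjusted p = 2.5e-04) and by 0.99 (SE 0.12, adjusted p = 1.5e-04). CCT2, another subunit, fell by 0.76 (adjusted p = 0.0041) with its spot saturated on 3 monolayer arrays, and the cofactor TBCE, which acts on alpha-tubulin, fell by 0.73 (adjusted p = 6.6e-04). The groups did not overlap for any of these 4, which were picked for the largest change. Of all genes, 12.2% were lower in RWV with no overlap. CCT7 and CCT8 fell with overlapping groups.

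Among 18 measured enzymes and partners that modify tubulin, 5 fell and 4 rose (median −0.25), and 2 rose without normalization between arrays. TTLL6, a polyglutamylase, rose from a level of 148 to 1322, a change of 2.79 (SE 0.32, adjusted p = 1.1e-04), and AGBL2, a carboxypeptidase that removes glutamate from tubulin, rose by 1.20 (SE 0.14, adjusted p = 1.1e-04). TTLL7, another polyglutamylase, fell by 0.82 (adjusted p = 0.031) and TTL, the ligase that restores the terminal tyrosine of alpha-tubulin, fell by 0.72 (adjusted p = 0.0014). Their mean RWV levels, 71.3 for TTLL7 and 77.7 for TTL, lay below 100, so the size of these falls is uncertain. The enzymes of this list thus moved in both directions.

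Of 16 measured proteins that bind along the microtubule lattice 3 rose and 1 fell, with a median of 0.11, and the counts without normalization between arrays were 1 higher and 1 lower. TPPP3, which bundles microtubules, changed most, from 302 to 6041, by 4.11 on the log2 scale (SE 0.50, adjusted p = 1.4e-04), a 17.3-fold rise with no overlap between the groups. Its relative TPPP rose past the test (adjusted p = 0.048) but lay below 100 on all 5 monolayer arrays and on 3 RWV arrays, so no fold is given. MAP1S, a relative of the neuronal protein MAP1A, rose by 0.26 (adjusted p = 0.035) and MAP7D1, a recruiter of kinesin, fell by 0.56 (adjusted p = 0.040).

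Of 17 measured genes for microtubule ends, severing and the subunit pool 7 fell and 3 rose (median −0.17), and none rose without normalization between arrays. TACC3, which stabilises spindle microtubules, fell from 3302 to 437, a change of −2.78 (SE 0.37, adjusted p = 2.2e-04). FIGNL1, a relative of the severing enzyme fidgetin, fell by 1.66 (adjusted p = 1.1e-04), STMN1, stathmin, which sequesters tubulin dimers, fell by 1.45 (adjusted p = 0.0013), and CKAP5, a microtubule polymerase, fell by 1.01 (adjusted p = 2.7e-04). None of these 4 genes, picked for the largest change, had overlapping groups. Of all genes, 12.2% were lower in RWV with no overlap.

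Of 11 other measured members of the tubulin superfamily 2 fell and 2 rose (median −0.35). TUBG1, the gamma-tubulin that nucleates microtubules, fell by 0.93 (SE 0.21, adjusted p = 0.0057) and TUBD1, delta-tubulin of centrioles, by 0.50 (adjusted p = 0.018). TUBAL3, an alpha-tubulin-like gene, rose from 208 to 406 (adjusted p = 0.034) and TUBE1, epsilon-tubulin of centrioles, from 93.0 to 187, below 100 on 4 of 5 monolayer arrays (adjusted p = 0.030). Without RWV 3, 5 fell and 1 rose, and without normalization between arrays none rose.

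**Figure D4:**
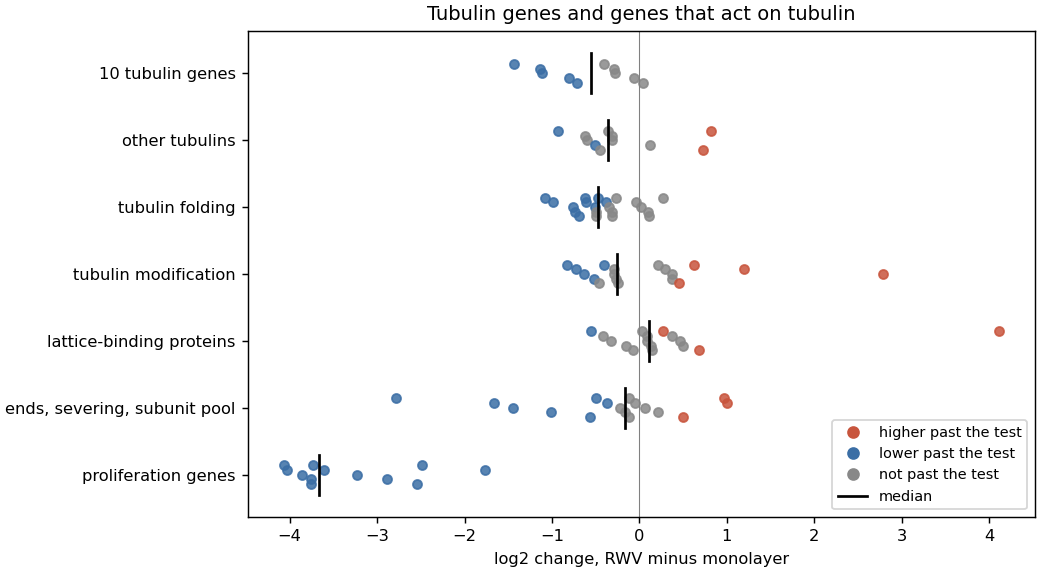
Change (log2, RWV minus monolayer) of the 10 tubulin genes, of other tubulins, of genes that act on tubulin, and of 12 proliferation genes, with a line at the median of each list. The tubulin and folding lists hold no gene that rose, TPPP3 and TTLL6 stand far to the right at 4.11 and 2.79, and all proliferation genes lie at the left with a median of −3.67.

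Genes of proliferating cells fell as well. All 12 proliferation genes fell, with a median of −3.67, among them the mitotic kinases PLK1 (−4.06) and AURKA (−3.76), cyclin B1, CCNB1 (−4.03), and the topoisomerase TOP2A (−3.86). The mean of the 12 genes relative to the monolayer mean was −1.59 on RWV 3 and between −4.38 and −3.05 on the other RWV arrays. The mean of the 10 tubulin genes was 0.15 on RWV 3 and between −0.99 and −0.54 on the others. RWV 3 was therefore the RWV array nearest to monolayer on both measures, and the part of proliferation in the tubulin changes was not tested.

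**Figure D5:**
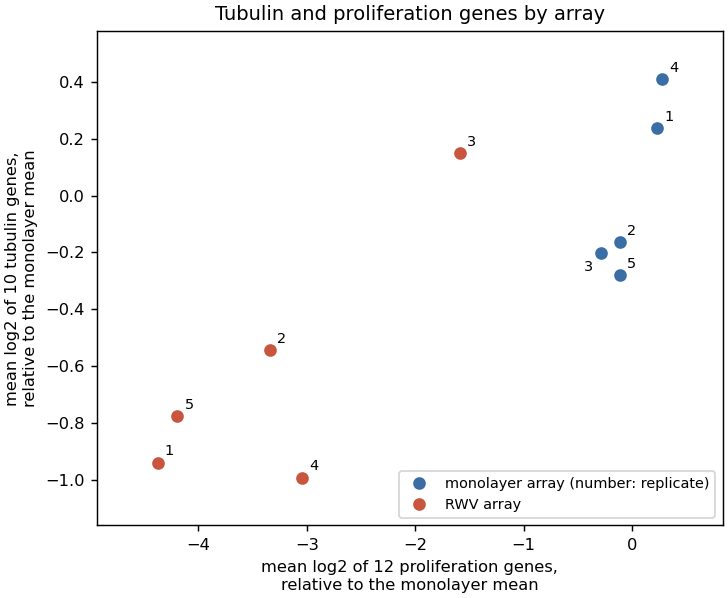
Mean log2 level of the 10 tubulin genes against that of 12 proliferation genes on each array, both relative to the monolayer mean, with numbers for replicates. RWV 3 lies between the groups for the proliferation genes (−1.59) and inside the monolayer range for the tubulin genes (0.15).

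Markers of other cell types were read beside the isotypes that are linked to them. Of 12 neuronal markers, set beside TUBB3, TUBB2A, TUBB2B and TUBA1A, 1 rose (SYT1, synaptotagmin, 2.19) and 2 fell (INA, −1.25, and the synaptic protein SNAP25, −1.15). Summed over the list, monolayer arrays lay between 4248 and 7993 and RWV arrays between 5368 and 8855, and DCX, ELAVL3, ELAVL4, GAP43, MAP2 and SYP lay below 100 on all 10 arrays. Of 11 measured markers of multiciliated cells, set beside TUBB4B, 3 rose: TPPP3 (4.11), RSPH1 of the radial spoke (1.27) and the dynein heavy chain DNAH5 (0.73). DNAH5 lay near the dim level of 100, at 46.3 in monolayer and 109 in RWV. The sum over this list lay between 501 and 1548 on monolayer arrays and between 3475 and 12757 on RWV arrays. TPPP3 alone made up 2666 to 11785 of it on RWV arrays, and without TPPP3 the sum was 393 to 844 on monolayer arrays against 800.2 to 1219 on RWV arrays. Of the 11 markers 6, with the master regulator FOXJ1 among them, lay below 100 on all 10 arrays.

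Of the 9 markers of leukocytes, fibroblasts and endothelium, 1 fell (COL1A1, a fibrillar collagen chain, −0.47, adjusted p = 0.049) and none rose, and their sum spanned 363 to 574 on the monolayer arrays against 362 to 472 on the RWV arrays. Of the 7 markers named for A549, KRT7 fell by 1.70 and KRT19 rose by 1.55, both keratins of simple epithelia. The summed level of the 7 was 122060 to 152212 on monolayer and 126707 to 181457 on RWV arrays. A large part of it was the mesenchymal VIM, at 59794 in monolayer and 61819 in RWV. The part of these markers in the tubulin changes was not tested.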

How the data were processed

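The deposited values were intensity values of 1-colour arrays, whole numbers from −66 to 65493 with background apparently subtracted and no normalization between arrays visible in the values. Scanner, extraction software and array layout steps were not given in the sources used here. Of 45220 spots, 31425 were annotated, 31332 with 1 gene symbol and 93 with several (not used). Gene symbols were checked by Entrez ID (31291 spots matched, 41 kept the platform name). The 10 arrays were quantile-normalised, set to at least 0, raised by 50 and log2-transformed, and spots of a gene averaged (18334 genes). Groups were compared with limma 3.58.1 in R 4.3.3 (lmFit, eBayes, two-sided, Benjamini-Hochberg over all genes, threshold 0.05). Spots below 100 were called dim and deposited values of 60000 or more saturated. In a test on simulated data, 96%, 84%, 86% and 98% of genes changed by −2, −1, 1 and 2 on the log2 scale were called, and 0.0496% of unchanged genes. The simulation changed 50 genes at each size, left 18134 unchanged and drew noise independently for each gene and array. In the data 30.1% of genes passed, so these rates need not hold there. The number of arrays, 5 per group, limits the precision.

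The members and the 11 gene lists (the members are among them) were chosen with earlier results of these data known. Genes named were all members, in each list up to 4 past the test with the largest absolute change, and the 5 genes nearest to TUBB6. Alternatives were normalization, pseudocount, choice of spots, saturated spots left out, dim genes left out, replicate and array-set blocks, fits within array sets, and each array left out. No 2 arrays shared more than 1.46% of values.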

Additional observations from a re-analysis of the deposited data

Results flagged for a closer look

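In 1 of 20 groups of 5 arrays tested (10 tubulin genes in 2 cultures), 1 array lay far from the rest: for TUBA4A in RWV culture, RWV 3 had a level of 29736 against 17930 on the next highest array. The gap took a share of 0.726 of the group's range on the log2 scale, above the limit of 0.71 for 5 samples. Chance gives about 1 such group in 20. Without RWV 3, TUBA4A was lower in RWV past the test (change −0.58, adjusted p = 0.047), and with it the change was −0.40 (adjusted p = 0.24).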

How the results depend on the processing

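No result changed direction past the test under any alternative run. Across alternatives other than leaving out single arrays, the number of tubulin genes that fell was 3 with each array scaled to a common 75th percentile, 3 with the brightest spot of each gene, 3 with every spot saturated on any array left out (which leaves TUBA1B, TUBA1C and TUBB6 without a value), 0 within arrays 1 to 3 and 2 within arrays 4 and 5, which hold fewer samples. It was 5 in the other fits, apart from 4 with the replicate block, and none rose in any. Leaving out single arrays gave 3 to 6 tubulin genes lower, with 3 without monolayer 1 or 4 or RWV 1, 2 or 4 and 6 without RWV 3.

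The replicate numbers were not treated as a pairing: correlations of same-numbered arrays were 0.03, 0.22, −0.15, 0.11 and 0.11, and 2 of 5 monolayer arrays correlated best with their own number. With the replicate block TUBB4B (−0.71) lost its call (adjusted p = 0.054), and TUBB6 kept −1.43 (adjusted p = 0.019).

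All genes called were 1037 higher without normalization, 1564 lower and 1453 higher within arrays 1 to 3, and 530 lower and 522 higher within arrays 4 and 5. Genes acting on tubulin were 3 higher without normalization, 15 lower and 6 higher within arrays 1 to 3, 5 lower and 1 higher within arrays 4 and 5, and 6 to 10 higher with single arrays left out (6 without monolayer 1).

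Among pairs, TUBA1A against TUBA1B passed the test at −1.26 without normalization and −1.26 with the 75th percentile, and TUBA1A against TUBA1C at −0.46 in both. With the brightest spot, TUBA1B against TUBA1C was 0.030 and TUBB6 against TUBB −0.059, neither past the test. TUBB3 against TUBB was 0.88 and TUBB4B against TUBB 1.21, also not past it (adjusted p = 0.063 for both). For TUBB3 against TUBB the exact p was still 0.0079, the smallest these groups allow. Leaving out spots saturated on any array, or on at least 2 arrays of a group, gave 0.045 for TUBB4B against TUBB. With the array set as a block, 0.74 for TUBA1B against TUBA1C, 0.85 for TUBB3, −0.29 for TUBB6 and 0.43 for TUBB4B against TUBB lost their calls (adjusted p = 0.067 or 0.080). Their values were unchanged, and TUBB3 and TUBB4B against TUBB were at the smallest exact p that this test allows (0.017). Within arrays 1 to 3 TUBB3 against TUBB was 1.10. Within arrays 4 and 5 it was 0.48, TUBB6 against TUBB −0.51, TUBA1B against TUBA1C 1.16 and TUBA4A against TUBA1B −0.76, in sets too small for this test to pass. With monolayer 4 and RWV 3 both left out, chosen after seeing the data, TUBA1A against TUBA1B was −1.36, TUBA1A against TUBA1C −0.47 and TUBB2A against TUBB2B −0.57, past the test, and TUBB4B against TUBB 0.45, not past it. Leaving out single arrays, the ranges were −1.38 to −0.88 for TUBA1A against TUBA1B, −0.45 to −0.23 for TUBA1A against TUBA1C, 0.64 to 0.92 for TUBA1B against TUBA1C and −0.54 to −0.17 for TUBB2A against TUBB2B. They were 0.79 to 0.99 for TUBB3, −0.35 to −0.17 for TUBB6 and 0.34 to 0.49 for TUBB4B, each against TUBB. Apart from fewer samples or fewer spots, the cause of these changes was not tested. Saturation limits what the brightest tubulin spots can show.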
